A study of Mus musculus with 30 samples.

Results

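Fragments of the pair of mitochondrial leucine tRNAs, mt-Tl1 and mt-Tl2, were followed through 30 small RNA libraries of mouse prefrontal cortex. A read was taken as a member when its whole sequence matched, sense and without mismatch, 1 of the 2 tRNAs of the GENCODE vM21 annotation with the CCA tail added. This gave 1735 distinct fragments of the 17451 found for all 22 mitochondrial tRNAs, 1062 of them from mt-Tl1 and 673 from mt-Tl2. Of these, 21 of mt-Tl1 and 3 of mt-Tl2 also occur in another GENCODE transcript, with 237 and 25 reads in all. The AD group was hemizygous 5xFAD, a transgenic line whose transgenes are driven by the neuron-directed Thy1 promoter, and the WT group was littermates without the transgenes. All mice were 6 months old, of both sexes and on a C57BL/6J background, and a library's sex was not given in the labels and could not enter a fit. Small RNAs cut from a gel were sequenced either directly (traditional-seq, 7 WT and 7 AD libraries) or after treatment with T4PNK and AlkB (PANDORA-seq, 8 WT and 8 AD libraries). T4PNK makes fragment ends ready for adapter ligation, and AlkB removes methyl groups on base edges that stop reverse transcription. Which of these treatments gave a difference between the protocols was not tested.

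Mitochondria translate their own mRNAs with tRNAs encoded in their genome, and leucine and serine are the amino acids served by 2 such tRNAs each. mt-Tl1 reads the UUR codons (R is a purine) and mt-Tl2 the CUN codons (N is any base). Their transcripts are cut out of long precursors at both ends, receive CCA at the 3′ end from a separate enzyme, and are modified at many bases, among them a methyl group on N1 of the purine at position 9. The human counterpart of mt-Tl1 is known for mutations in mitochondrial encephalomyopathy. Fragments of tRNAs, called tsRNAs, are described as 5′ or 3′ fragments when they hold that end of the tRNA, and some arise from cuts in the anticodon loop.

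The 2 tRNAs are shown whole, because the positions given from here on count from their first base. The sequences are those of GENCODE on mouse build GRCm38 with CCA appended, and capitals mark the anticodon.
mt-Tl1: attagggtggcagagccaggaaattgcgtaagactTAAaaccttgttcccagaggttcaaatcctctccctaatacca
mt-Tl2: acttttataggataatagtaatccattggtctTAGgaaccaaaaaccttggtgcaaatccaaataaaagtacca
mt-Tl1 (ENSMUSG00000064340.1) is the 75 nt gene at chrM:2676-2750 on the plus strand, directly between the 16S rRNA gene mt-Rnr2 and the complex I subunit gene mt-Nd1. mt-Tl2 (ENSMUSG00000064366.1) is the 71 nt gene at chrM:11671-11741 on the same strand, overlapping the end of the serine tRNA mt-Ts2 by 1 nt and followed by mt-Nd5. The anticodon fills positions 36 to 38 of mt-Tl1 and 33 to 35 of mt-Tl2. The encoded parts are 44% and 31% G and C, share 51.1% of aligned positions, and have no common stretch over 9 nt, so no member could come from both.

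The fragments that carried the results are shown next, chosen from the 3 with the most reads for each tRNA and protocol at 15 to 40 nt. Capitals again mark anticodon bases.
mt-Tl1 38 to 77, first in PANDORA-seq: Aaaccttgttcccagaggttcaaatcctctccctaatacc
mt-Tl1 1 to 25, first in traditional-seq: attagggtggcagagccaggaaatt
mt-Tl1 43 to 57, the next in traditional-seq: ttgttcccagaggtt
mt-Tl2 16 to 32, first in PANDORA-seq: tagtaatccattggtct
mt-Tl2 3 to 34, high in PANDORA-seq: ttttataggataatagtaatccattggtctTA
mt-Tl2 16 to 35, first in traditional-seq: tagtaatccattggtctTAG
The most abundant mt-Tl1 fragment thus began at the anticodon and ran to the tail with PANDORA-seq, and was the 5′ end with traditional-seq. The leading mt-Tl2 fragment of traditional-seq ended on the last anticodon base.

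PANDORA-seq libraries held 54926347 to 105876141 reads and traditional-seq libraries 9370669 to 17053412. Of these, 6.60% to 16.4% and 41.9% to 56.6% matched a mitochondrial RNA or small non-coding RNA of the annotation. The label cortex was checked against 9 gene names listed for neural miRNAs, of which 8 were detected. The list holds Mir124-2hg, the name of a host gene. The summed level was 1670 to 6881 reads per 1000000 reads of the library (RPM) with PANDORA-seq and 87614 to 291798 RPM with traditional-seq. The liver miRNA gene Mir122 was at 43.2 to 258 RPM with PANDORA-seq, highest in AD replicate 6. With traditional-seq it was at 13.6 to 755 RPM, highest in AD replicate 4. Erythroid miRNAs were at 6.94 to 14.7 RPM and 28.5 to 270 RPM, and the myeloid one at 0.037 to 0.555 RPM and 0.41 to 2.32 RPM. Muscle miRNAs (4 of 5 genes detected) summed to 2.01 to 6.70 RPM in the WT PANDORA-seq libraries, and reached 192 RPM, 79.7 RPM and 33.0 RPM in AD replicates 1, 6 and 7, which were left out as an alternative chosen after seeing the data. In traditional-seq they summed to 270 to 7913 RPM with a median of 429 RPM, the highest being AD replicate 4, followed by WT replicate 7 with 3310 RPM and WT replicate 4 with 1206 RPM, and their part in the values of that protocol was not tested. Reads of 43 to 45 nt made up 15.5% ± 3.19 (SD, n = 8; range 11.25% to 21.5%) of WT and 4.96% ± 2.90 (n = 8; 2.13% to 10.7%) of AD PANDORA-seq libraries, and 45 nt was the longest read kept. The longest read of traditional-seq was 42 nt, so 43 to 45 nt were described for PANDORA-seq alone. Values are from bulk tissue, in which fewer cells of a type and less RNA per cell cannot be told apart, and the p-values measure the spread between these libraries.

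The protocols put the 2 tRNAs in opposite order. At 15 to 40 nt, mt-Tl1 ranged from 71.9 RPM over a median of 167 RPM to 256.1 RPM in the 16 PANDORA-seq libraries, and from 26.3 RPM over 61.8 RPM to 112 RPM in the 14 traditional-seq libraries. mt-Tl1 was thus higher with PANDORA-seq, with some overlap between the protocols. mt-Tl2 ranged from 4.61 RPM over 17.8 RPM to 57.2 RPM with PANDORA-seq, and from 98.3 RPM over 176 RPM to 296 RPM with traditional-seq, where every library was above every PANDORA-seq library. On the log2(RPM + 0.1) scale mt-Tl1 averaged 7.25 ± 0.49 (SD, n = 16) and 5.84 ± 0.56 (n = 14), a difference of 1.41 (two-sided permutation test, adjusted p = 1.47e-05 over the 22 mitochondrial tRNAs). mt-Tl2 averaged 4.13 ± 1.03 and 7.38 ± 0.60, a difference of -3.25 with the same adjusted p from the permutation test. RPM counts all reads of a library, and a smaller part of these matched the annotation with PANDORA-seq than with traditional-seq. The size of both differences therefore depends on this denominator. The tests between protocols took libraries as unrelated, although 14 libraries of each share a code in their file names. With these as pairs the differences were 1.41 and -3.14 (adjusted p = 0.000192 for both, exact permutation test). The raw p of both in the unpaired test, 1e-05, is the smallest that 100000 permutations can give. A level difference between the protocols was called for 86.4% of the 22 mitochondrial tRNAs, so being called did not set the leucine tRNAs apart.

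Within a library, the ratio of mt-Tl1 to mt-Tl2 reads of 15 to 40 nt does not depend on depth. It was 10.02 ± 5.24 (SD, n = 16), from 3.95 to 20.3, with PANDORA-seq and 0.376 ± 0.163 (n = 14), from 0.111 to 0.778, with traditional-seq. The protocols did not overlap, and the log2 ratio differed by 4.66 (permutation test, adjusted p = 1.37e-05 over 231 pairs), as it did for 88.7% of all pairs of mitochondrial tRNAs. Among the 22 tRNAs by mean level, mt-Tl1 stood at rank 9 with PANDORA-seq and 17 with traditional-seq, with 0.861% and 0.121% of the mitochondrial tRNA reads. mt-Tl2 stood at rank 16 and 13, with 0.117% and 0.357%. In both protocols most mitochondrial tRNA reads came from mt-Ts2, the serine tRNA that overlaps the start of mt-Tl2, with 73.2% and 72.9%.

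**Figure D1:**
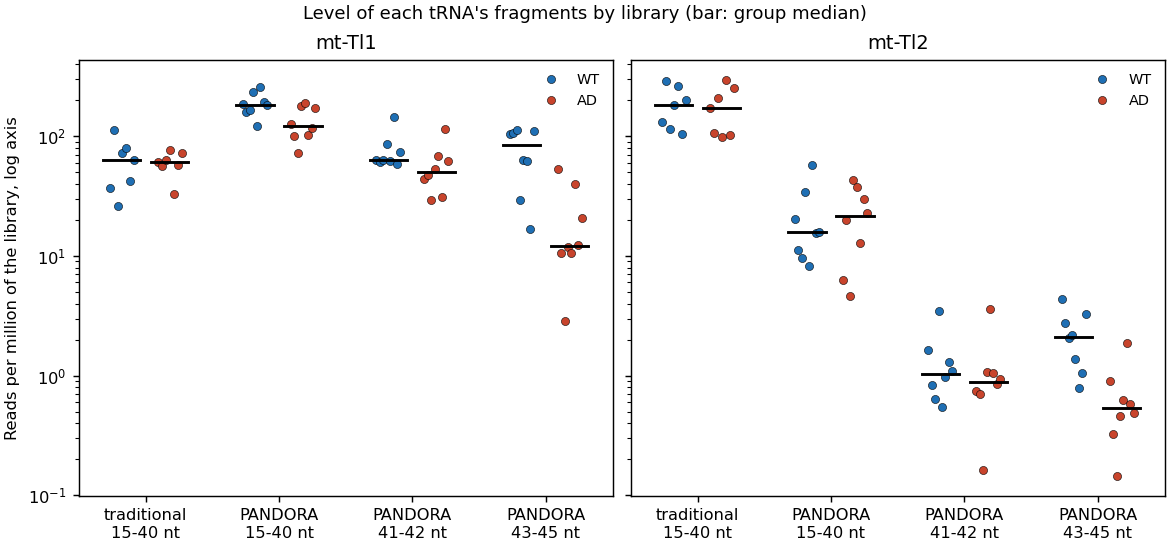
RPM (log axis) for mt-Tl1 (left) and mt-Tl2 (right) by protocol and read length, with a point for each WT (blue) and AD (red) library and bars at the group medians. mt-Tl1 lies higher with PANDORA-seq than with traditional-seq and mt-Tl2 lower, and in both the AD points fall below the WT median at 43 to 45 nt.

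Which part of each tRNA was read also differed between protocols. With PANDORA-seq, coverage of mt-Tl1 by reads of 15 to 40 nt peaked at position 43, behind the anticodon, at 139 RPM ± 47.4 (SD, n = 16). With traditional-seq the mt-Tl1 peak was at position 16, in the 5′ part, at 33.9 RPM ± 15.1 (n = 14). The centre of mt-Tl1 coverage thus moved from the 5′ to the 3′ side of the anticodon. mt-Tl2 kept its peak in the same place, at position 29 with 17.96 RPM ± 12.9 and at position 30 with 160 RPM ± 71.8. Its coverage fell off at the anticodon in both protocols, and the base after the anticodon was covered by 17.1% ± 9.68 of mt-Tl2 reads with PANDORA-seq and 6.96% ± 3.78 with traditional-seq. For mt-Tl1 the same base was covered by 58.3% ± 9.80 and 11.5% ± 2.33 of reads. Mean read length was 36.2 nt ± 0.631 against 23.5 nt ± 2.13 for mt-Tl1, and 25.6 nt ± 2.52 against 20.8 nt ± 1.55 for mt-Tl2.

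**Figure D2:**
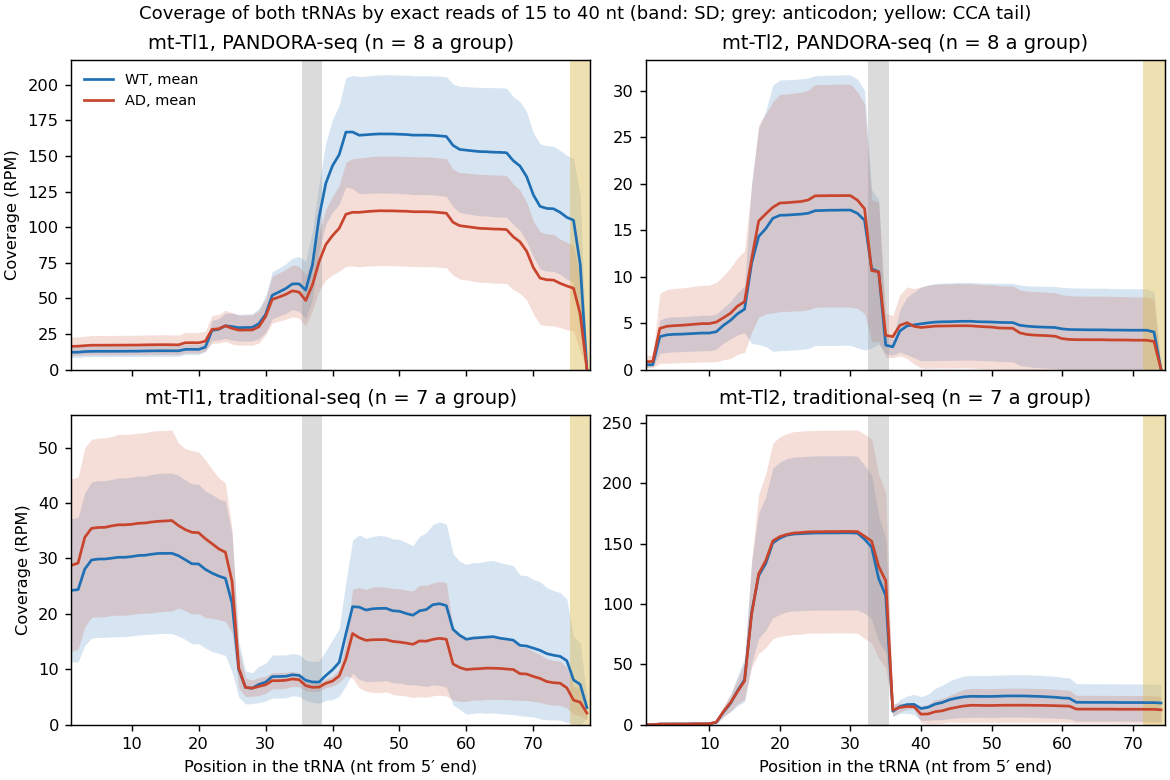
Mean coverage in RPM by position from the 5′ end of mt-Tl1 (left) and mt-Tl2 (right) for WT (blue) and AD (red) libraries, by PANDORA-seq (top, n = 8 a group) and traditional-seq (bottom, n = 7), with SD as bands, the anticodon in grey and the CCA tail in yellow. mt-Tl1 changes from a 5′ profile to a 3′ profile between the protocols, while mt-Tl2 keeps a block of coverage before the anticodon that falls off there.

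Fragments were then sorted into 5′ fragments, which start at position 1, 3′ fragments, which end within the CCA tail or directly before it, and internal fragments, which do neither. For mt-Tl1, 5′ fragments made up 5.14% to 22.4% of reads of 15 to 40 nt with PANDORA-seq (median 8.89%) and 25.8% to 75.3% with traditional-seq (median 38.2%). The 5′ share of mt-Tl1 averaged 9.47% ± 4.45 and 42.2% ± 13.4, with no overlap between libraries, a difference of -32.8 percentage points (permutation test, adjusted p = 1.29e-05). Such a difference in the 5′ share was called for 95.5% of the mitochondrial tRNAs. The 3′ share of mt-Tl1 moved the other way, from 49.4% ± 13.4 with PANDORA-seq to 14.6% ± 9.86 with traditional-seq, a difference of 34.8 points (permutation test, adjusted p = 1.69e-05, called for 77.3% of the tRNAs). The internal share of mt-Tl1 was 41.1% ± 11.8 and 43.2% ± 10.1, and this difference of -2.08 points was not called (adjusted p = 0.613 in the permutation test, 86.4% of the tRNAs called).

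With 5′ fragments defined by a start at position 1, mt-Tl2 was read mostly as internal fragments in both protocols. A fragment that starts just after position 1, such as 3 to 34, counts as internal here. Of PANDORA-seq reads of 20 to 40 nt, 909 held position 4 at least 2 nt from either end and 5276 held position 5. Many thus began at position 3. The internal share of mt-Tl2 ranged from 43.2% over 84.8% to 92.3% with PANDORA-seq and from 68.0% over 93.9% to 99.3% with traditional-seq, and the ranges overlapped widely. The means of 80.1% ± 13.6 and 90.3% ± 9.93 differed by -10.1 points (permutation test, adjusted p = 0.0317), a call that was lost in 8 of the 30 fits that left out 1 library. It was also lost when libraries that share a code in their file names were taken as 14 pairs, an alternative chosen after seeing the data (-10.8 points, lower with PANDORA-seq in 10 of 14, adjusted p = 0.0534, exact permutation test). The 5′ end of mt-Tl2 was nearly absent from the exact matches of traditional-seq, where 5′ fragments were 0.0111% ± 0.0299 of reads and at 0 in all 7 WT libraries. With PANDORA-seq they were 4.30% ± 2.95, a difference of 4.29 points (permutation test, adjusted p = 1.29e-05). These values leave out the reads with a mismatch at position 9, which were 90.8% of the reads of 20 to 40 nt over that position with traditional-seq and 13.4% with PANDORA-seq. The 3′ share of mt-Tl2, 15.6% ± 15.0 and 9.73% ± 9.93, was not called (permutation test, adjusted p = 0.285).

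**Figure D3:**
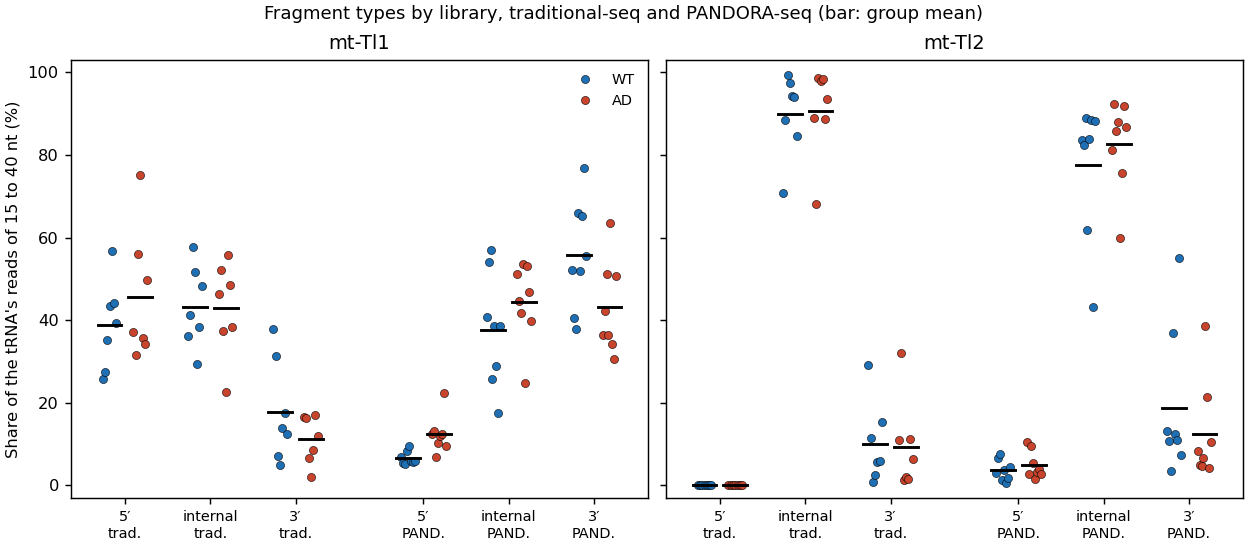
Share (%) of the reads of 15 to 40 nt of mt-Tl1 (left) and mt-Tl2 (right) that were 5′, internal or 3′ fragments, with a point for each WT (blue) and AD (red) library and bars at the group means. mt-Tl1 goes from 42.2% to 9.47% 5′ fragments between traditional-seq and PANDORA-seq, and mt-Tl2 stays mostly internal.

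The ends of the fragments fell at particular places. With PANDORA-seq, 73.7% ± 8.29 of the 3′ fragments of mt-Tl1 began in the anticodon loop (positions 34 to 40), and 64.3% ± 10.8 of its 5′ fragments ended there. With traditional-seq these shares were 17.1% ± 10.5 and 3.03% ± 4.08. Most 5′ and 3′ fragments of mt-Tl1 of these lengths in PANDORA-seq thus had an end in the anticodon loop. For mt-Tl2, 40.9% ± 11.9 of 3′ fragments began in the loop (positions 31 to 37) with PANDORA-seq and 16.5% ± 11.3 with traditional-seq. The length limit bears on these shares. In either tRNA a 3′ fragment of at most 40 nt cannot start before the loop, and a shorter one starts later. A 5′ fragment of mt-Tl1 cannot end beyond position 40. Longer 3′ fragments of mt-Tl1 were present with PANDORA-seq, at a mean of 28.3 RPM at 43 to 45 nt beside 82.8 RPM at 15 to 40 nt. Reads of both tRNAs were also shorter on average with traditional-seq. The shares, and the part of length in them, were not tested.

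A stretch of mt-Tl2 stood out by position. Reads that lay between position 9 and the end of the anticodon made up 80.3% ± 10.7 of mt-Tl2 reads with traditional-seq and 47.9% ± 15.5 with PANDORA-seq. Of the exact mt-Tl2 matches, 0.464% ± 0.331 covered position 9 with traditional-seq and 24.9% ± 14.4 with PANDORA-seq, and the highest traditional-seq library (1.005%) was below the lowest PANDORA-seq library (3.37%). Most traditional-seq reads over this position were left out of these shares, as 90.8% of them carried a mismatch there, against 13.4% with PANDORA-seq. Among reads of 20 to 40 nt that reach at least 2 nt beyond position 9 on both sides, the mt-Tl2 shares were 0.653% ± 0.516 and 41.1% ± 17.9 by exact match. With reads of 1 mismatch counted too, they were 6.31% ± 4.07 (1.41% to 15.7%) with traditional-seq and 39.3% ± 14.8 (14.3% to 67.4%) with PANDORA-seq, and the protocols overlapped slightly. mt-Tl1 went the other way, with position 9 in 54.0% ± 14.2 of traditional-seq reads and 9.997% ± 4.70 of PANDORA-seq reads. These shares were described after their values were seen and were not tested.

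The single fragments show the same contrast. The mt-Tl1 fragment 38 to 77 (chrM:2713-2750 and 2 tail bases) took 11.6% of PANDORA-seq reads at 18.6 RPM ± 15.2 (SD, n = 16; 3.23 to 59.8), against 0.1004 RPM ± 0.229 (n = 14) with traditional-seq. The fragments 39 to 77 and 37 to 76 followed with 8.58% and 6.94%, and these 3 differ by single bases at their ends. In traditional-seq, mt-Tl1 1 to 25 (chrM:2676-2700) took 19.3% at 11.8 RPM ± 6.87 (3.09 to 25.3), against 1.22 RPM ± 0.744 with PANDORA-seq, where the highest library had 2.61 RPM. Its shorter form 1 to 24 had 5.60% of traditional-seq reads. Between them stood the 15 nt internal fragment 43 to 57 with 6.26%, at 3.82 RPM ± 3.38 in traditional-seq and 0.00523 RPM ± 0.0125 in PANDORA-seq.

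The mt-Tl2 fragment 16 to 35 (chrM:11686-11705) led traditional-seq with 17.03% of reads at 30.6 RPM ± 19.3 (6.76 to 69.1) and had 0.0284 RPM ± 0.0484 with PANDORA-seq. The fragment 17 to 35 took 13.3% and 16 to 33 took 7.03%. In PANDORA-seq the leading mt-Tl2 fragments were 16 to 32 with 10.9%, 17 to 32 with 9.61% and 3 to 34 with 9.49%. The leading piece that started at 16 thus ended 3 nt earlier with PANDORA-seq. The fragment 16 to 32 itself had similar levels in both protocols, 2.37 RPM ± 2.63 and 3.22 RPM ± 2.21, and 3 to 34, which holds position 9, had 2.07 RPM ± 1.52 with PANDORA-seq and 0.00690 RPM ± 0.0258 with traditional-seq. The last value counts exact matches alone, and a mismatch at position 9 took 90.8% of the traditional-seq reads over it.

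The CCA tail of the 3′ fragments differed between protocols in each tRNA. With traditional-seq, 95.2% ± 6.48 of mt-Tl2 3′ fragments ended with the whole CCA, and 34.1% ± 12.0 of those of mt-Tl1. With PANDORA-seq the whole tail was nearly absent, 0.0683% ± 0.137 for mt-Tl2 and 0.0301% ± 0.0434 for mt-Tl1. The differences were -95.2 and -34.1 percentage points (permutation test, adjusted p = 1e-05 for both), and all of the 21 tRNAs tested were called (100%). In place of CCA, 93.9% ± 4.15 of mt-Tl2 fragments and 63.8% ± 18.2 of mt-Tl1 fragments ended 1 nt short in PANDORA-seq, at CC. mt-Tl1 also ended 2 nt short in 33.7% ± 17.1. In traditional-seq, 28.6% ± 12.996 of mt-Tl1 3′ fragments carried no tail at all, against 2.05% ± 6.63 for mt-Tl2. miRNAs, which carry no CCA, were also shorter at the 3′ end in the PANDORA-seq libraries. A median of 20.4% of their reads (range 15.7% to 25.9%) reached the annotated 3′ end and 49.8% stopped 1 nt before it, against 50.8% (38.6% to 58.0%) and 16.7% with traditional-seq. What the missing base of miRNAs has to do with that of the tRNA tails was not tested.

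**Figure D4:**
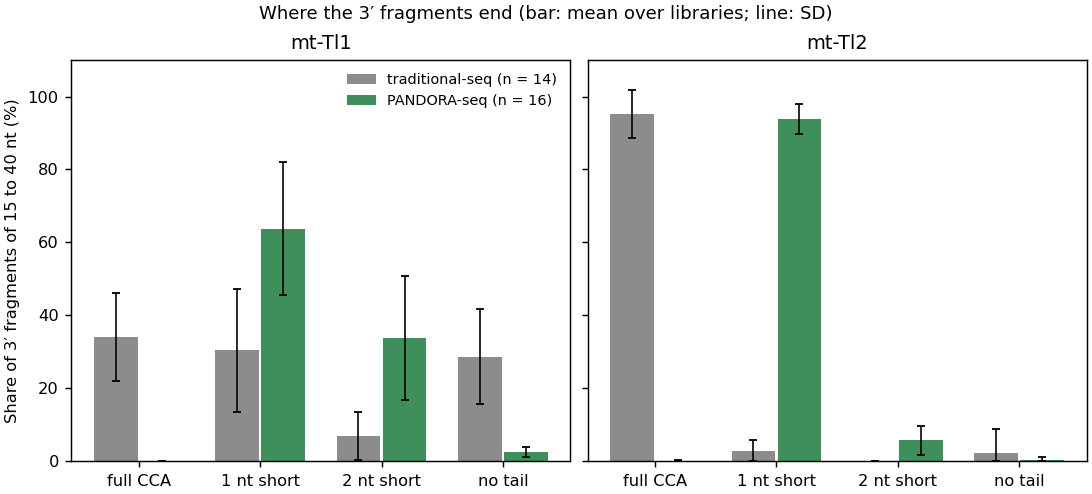
Share (%) of the 3′ fragments of 15 to 40 nt of mt-Tl1 (left) and mt-Tl2 (right) that end with the full CCA, 1 nt short, 2 nt short or without tail, as mean bars over 14 traditional-seq (grey) and 16 PANDORA-seq (green) libraries with SD as lines. Whole tails are seen with traditional-seq, 95.2% for mt-Tl2 and 34.1% for mt-Tl1, and hardly with PANDORA-seq.

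The exact match leaves out every read with a mismatch. Reads of 20 to 40 nt with 1 mismatch at least 2 nt from the read's ends were therefore counted beside the exact ones. This was a description after the values were seen. At position 9 of mt-Tl2, 90.8% of traditional-seq reads carried a mismatch (900 of 991 reads, 85.9% to 96.3% over the 12 libraries with 20 or more reads). With PANDORA-seq it was 13.4% (range 1.71% to 39.6% over 16 libraries), and the protocols did not overlap. At position 9 of mt-Tl1 the shares were 21.7% (14.5% to 30.5%) and 7.82% (3.23% to 11.4%). N1 methylation of the purine at position 9 is placed by TRMT10C and is a substrate of AlkB, which only PANDORA-seq used. Other positions above 10% with traditional-seq were 36 of mt-Tl2, directly behind the anticodon, with 17.96% against 5.88% with PANDORA-seq, and 28 and 6 of mt-Tl1, with 18.2% and 10.97% against 4.64% and 3.73%. No modification was measured here. With these reads counted too, the protocol differences were 1.25 for mt-Tl1 and -3.23 for mt-Tl2 on the log2 scale and 4.48 for their ratio, an alternative chosen after seeing the data.

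**Figure D5:**
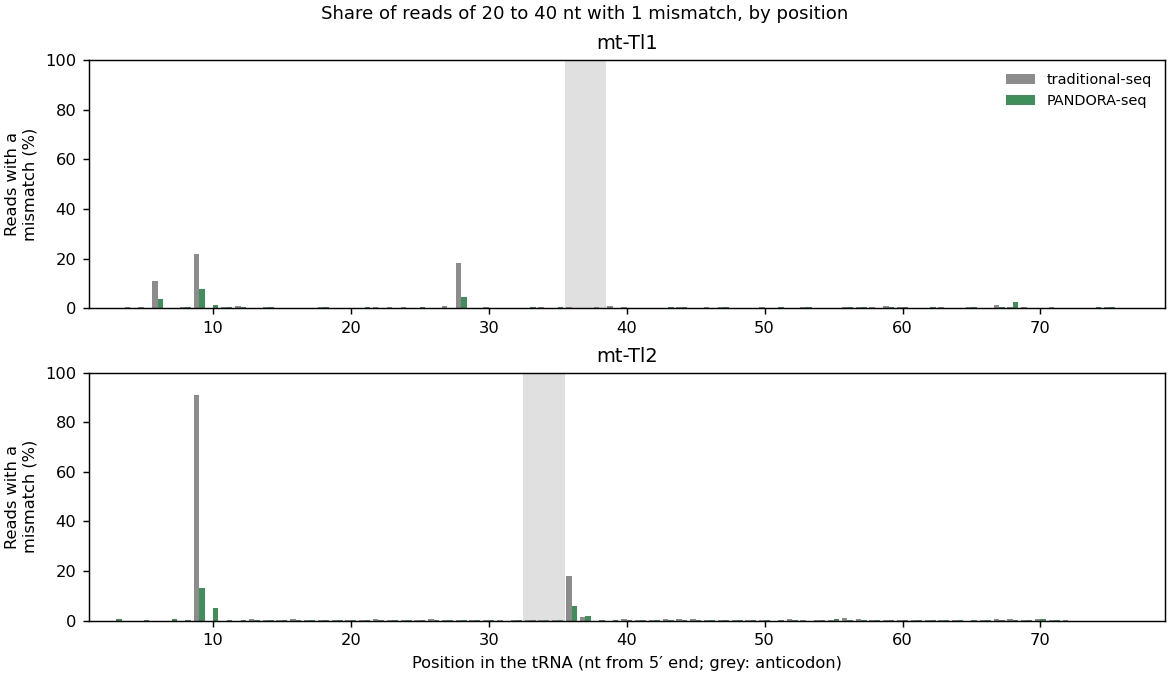
Share (%) of reads of 20 to 40 nt with a mismatch at each position, counted in nt from the 5′ end, of mt-Tl1 (top) and mt-Tl2 (bottom), pooled over the traditional-seq (grey) and PANDORA-seq (green) libraries, with the anticodon shaded. Position 9 of mt-Tl2 reaches 90.8% with traditional-seq and 13.4% with PANDORA-seq.

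The genotypes were compared within each protocol. At 15 to 40 nt with PANDORA-seq, mt-Tl1 ranged from 122 RPM over a median of 183 RPM to 256.1 RPM in WT and from 71.9 RPM over 122 RPM to 190 RPM in AD. Of the 8 AD libraries, 4 were below the lowest WT library. The mean was 187 RPM ± 42.04 in WT and 133 RPM ± 42.9 in AD, and the edgeR quasi-likelihood estimate was a log2 change of -0.22 (SE 0.21, adjusted p = 0.474). The size of this change depended on the scaling. It was -0.49 (adjusted p = 0.299, edgeR) when scaled by library size and -0.62 (SE 0.19, unadjusted p = 0.00442, adjusted p = 0.593, edgeR) with the reads of 15 to 40 nt fitted alone. Per 1000000 reads of 15 to 40 nt, mt-Tl1 had 239.8 ± 59.2 in WT and 148 ± 48.04 in AD. mt-Tl2 ranged from 8.23 RPM over 15.7 RPM to 57.2 RPM in WT and from 4.61 RPM over 21.4 RPM to 42.7 RPM in AD. The groups overlapped, with a log2 change of 0.29 (SE 0.40, adjusted p = 0.642, edgeR). With the reads of 15 to 40 nt fitted alone, the mt-Tl2 change was -0.11 (SE 0.37, adjusted p = 0.967, edgeR). Neither tRNA was called at these lengths. At these lengths 7.71% of RNAs were called higher in AD and 0.0929% lower. The median change of all RNAs at 15 to 40 nt was 0.43, above the changes of both tRNAs.

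At 43 to 45 nt both tRNAs were lower in AD. mt-Tl1 ranged from 16.9 RPM over 84.0 RPM to 112 RPM in WT and from 2.86 RPM over 12.1 RPM to 53.6 RPM in AD. All 8 AD libraries were below the WT median and 5 below the lowest WT library. The log2 change of mt-Tl1 was -1.68 (SE 0.46, adjusted p = 0.0135, edgeR). mt-Tl2 ranged from 0.784 RPM over 2.12 RPM to 4.36 RPM in WT and from 0.146 RPM over 0.537 RPM to 1.88 RPM in AD, with 6 of 8 AD libraries below every WT library. Its log2 change was -1.52 (SE 0.40, adjusted p = 0.00995, edgeR). Reads of these lengths were fewer in AD for most RNAs, as 63.2% of the RNAs measured at 43 to 45 nt were called lower, with a median change of -1.76. The leucine tRNAs did not exceed it. Fitted on the reads of 43 to 45 nt alone, the changes were 0.23 for mt-Tl1 and 0.43 for mt-Tl2 (edgeR, adjusted p = 0.571 and 0.291). Per 1000000 reads of 43 to 45 nt, mt-Tl1 had 484 ± 246 in WT and 383 ± 193 in AD, and mt-Tl2 14.7 ± 7.56 and 13.1 ± 4.33. Without AD replicates 1, 6 and 7, which hold more muscle miRNA, the changes were -2.53 and -2.18 (adjusted p = 0.000669 and 0.000861, edgeR). Of all distinct sequences tested, 7.72% were called lower without these libraries, against 4.25% with them. The changes were not compared with the median of all RNAs in that setting. Those 3 libraries held 6.90%, 10.67% and 3.05% reads of 43 to 45 nt. The part of the overall shift in read length, and of the muscle miRNA, in these changes was not tested.

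At 41 to 42 nt mt-Tl1 had 76.6 RPM ± 29.4 in WT and 56.4 RPM ± 27.3 in AD, and the log2 change of -0.13 was not called (SE 0.27, adjusted p = 0.768, edgeR). At these lengths 5.03% of RNAs were called lower. mt-Tl2 was at 1.31 RPM ± 0.946 and 1.14 RPM ± 1.03, with a log2 change of -0.04 (SE 0.44, adjusted p = 0.952, edgeR).

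Among distinct fragments, 160 of mt-Tl1 and 30 of mt-Tl2 had enough reads to be tested with PANDORA-seq. edgeR called 6 of mt-Tl1 and 1 of mt-Tl2 lower in AD (adjusted p under 0.05 and a fold over 2) and none higher, against 4.25% lower and 0.129% higher of all 24081 sequences tested. At an unadjusted p under 0.05 there were 36 of mt-Tl1 (22.5%, 32 of them lower) and 2 of mt-Tl2 (6.67%, both lower), beside 3636 (15.1%) of all sequences, 2100 of them lower. All 7 called fragments were 44 or 45 nt long. They were 6 of the 19 mt-Tl1 and 1 of the 2 mt-Tl2 fragments tested at 43 to 45 nt, where 42.7% of all sequences were called lower, while 0 of the 122 mt-Tl1 and 26 mt-Tl2 fragments of 15 to 40 nt were called (0.227% of all sequences of these lengths). At 41 to 42 nt 0 of 19 and 0 of 2 were called, against 2.47% of all. The direction depended on the fit. With the reads of 43 to 45 nt fitted alone, edgeR called 4 mt-Tl1 fragments lower and 8 higher of 23. Of mt-Tl2, 0 were lower and 1 higher of 3. In that fit 23.9% of all 2149 sequences were called lower and 19.8% higher. Without the 3 AD libraries of high muscle miRNA, 19 mt-Tl1 and 2 mt-Tl2 fragments were called lower, of 196 and 39 tested, beside 2229 (7.72%) of all 28881 sequences tested. The counts without single libraries were 5 to 10 and 1 to 2, the highest without AD replicate 1 for mt-Tl1 and without AD replicate 6 for mt-Tl2, while 3.56% to 5.70% of all sequences were called lower in these fits, 5.23% and 5.70% without those 2 libraries.

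The called fragments of mt-Tl1, 44 or 45 nt long, started at neighbouring positions and lay in its 3′ part. Others of the same stretch were not called, among them 31 to 73 (43 nt, adjusted p = 0.0508, edgeR) and 33 to 76 (44 nt, adjusted p = 0.0564, edgeR). The 3 called fragments of mt-Tl1 with the smallest adjusted p, and the called one of mt-Tl2, are shown, with anticodon bases in capitals.
mt-Tl1 30 to 74: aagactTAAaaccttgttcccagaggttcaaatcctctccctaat
mt-Tl1 32 to 76: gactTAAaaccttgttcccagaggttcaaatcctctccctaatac
mt-Tl1 31 to 75: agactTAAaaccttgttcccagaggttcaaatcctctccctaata
mt-Tl2 29 to 73: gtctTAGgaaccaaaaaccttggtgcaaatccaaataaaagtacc
The fragment 30 to 74 of mt-Tl1 (chrM:2705-2749) ranged from 1.63 RPM over 5.54 RPM to 35.8 RPM in WT and from 0.0435 RPM over 0.175 RPM to 0.607 RPM in AD. The groups did not overlap, and the log2 change was -5.51 (SE 0.77, adjusted p = 0.000109, edgeR). Nor did the share of all reads of 45 nt, this fragment's length, in the libraries (3.70% to 5.35% in WT, 0.697% to 2.64% in AD). How many other sequences of that length were without overlap was not counted. The fragment 32 to 76 (chrM:2707-2750 and 1 tail base) ranged from 0.493 RPM over 3.48 RPM to 6.64 RPM in WT and from 0.0218 RPM over 0.0625 RPM to 0.486 RPM in AD, again without overlap, with a log2 change of -4.28 (SE 0.75, adjusted p = 0.000984, edgeR). The fragment 31 to 75 (chrM:2706-2750) ranged from 0.327 RPM to 5.41 RPM in WT and from 0 to 0.376 RPM in AD, a slight overlap, with a log2 change of -4.16 (SE 0.88, adjusted p = 0.00547, edgeR). All of these hold the anticodon and end within 2 nt of the start of the tail. The other called fragments of mt-Tl1 were 31 to 74, 29 to 73 and 33 to 77. The last of these had 3.83 RPM over 9.62 RPM to 24.0 RPM in WT and 0 over 0.375 RPM to 5.88 RPM in AD (log2 change -3.07, SE 0.85, adjusted p = 0.0432, edgeR).

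The called mt-Tl2 fragment 29 to 73 (chrM:11699-11741 and 2 tail bases) was the most abundant at 43 to 45 nt, with 26.8% of reads, at 0.196 RPM over 0.658 RPM to 1.51 RPM in WT and 0 over 0.0364 RPM to 0.437 RPM in AD. Its log2 change was -3.07 (SE 0.74, adjusted p = 0.0164, edgeR). The next, 30 to 73 with 19.7% of reads, was not called at a log2 change of -1.76 (SE 0.66, adjusted p = 0.184, edgeR), and 17 to 59 with 10.1% had too few reads to be tested. The mt-Tl1 fragment with most reads at these lengths, 35 to 77 with 23.6%, was not called at a log2 change of -1.61 (SE 0.54, adjusted p = 0.118, edgeR). It differs from 33 to 77, which was called, by 2 bases at its start and is 43 nt long, and reads of 43, 44 and 45 nt in the whole libraries went from 3.75%, 7.22% and 4.51% in WT to 1.84%, 1.92% and 1.19% in AD. In share of mt-Tl1 reads, 35 to 77 was followed by 33 to 77 with 12.7% and 30 to 74 with 11.8%. The leading fragment of 15 to 40 nt, mt-Tl1 38 to 77, had 25.4 RPM ± 18.04 in WT and 11.7 RPM ± 7.88 in AD and was not called, with a log2 change of -1.05 (SE 0.49, adjusted p = 0.308, edgeR).

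The make-up of mt-Tl1 differed between genotypes in its 5′ share. With PANDORA-seq at 15 to 40 nt, 5′ fragments made up 5.14% over a median of 5.84% to 9.59% of mt-Tl1 reads in WT and 6.96% over 12.2% to 22.4% in AD. Of the 8 AD libraries, 6 were above the highest WT library. The difference of the means, 6.58% ± 1.59 and 12.4% ± 4.55, was 5.80 percentage points (exact permutation test, two-sided, p = 0.00109, adjusted p = 0.0239 over 22 tRNAs). mt-Tl1 was the 1 tRNA called among the 22 (4.55%). Leaving out single libraries gave 4.36 to 6.57 points with adjusted p of 0.00684 to 0.0547, the call being lost at 0.0547 without WT replicate 2 (5.63), 3 (5.59), 6 (5.69), 7 (5.66) or 8 (5.69). Without the 3 AD libraries of high muscle miRNA, 1 of which was the highest of all, the difference was 3.74 points and no longer called (adjusted p = 0.137, exact permutation test). In RPM, 5′ fragments of mt-Tl1 were at 12.1 ± 3.58 in WT and 16.3 ± 6.50 in AD, and 3′ fragments at 107 ± 43.5 and 58.7 ± 30.7.

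The other shares of fragment types, of whole CCA and of mt-Tl1 to mt-Tl2 were tested and not called between genotypes with the main settings. The 3′ share of mt-Tl1 was 55.7% ± 13.2 in WT and 43.1% ± 11.1 in AD, and this difference of -12.6 points had an adjusted p of 0.605 (exact permutation test, 0 of 22 called). The internal share of mt-Tl1 was 37.7% ± 13.5 and 44.5% ± 9.47 (adjusted p = 0.797, exact permutation test). For mt-Tl2 the internal share was 77.6% ± 16.4 and 82.7% ± 10.7 (adjusted p = 0.800, exact permutation test) and the 5′ share 3.64% ± 2.54 and 4.97% ± 3.34 (adjusted p = 0.899, exact permutation test). At 43 to 45 nt the shares of mt-Tl2 rest on few reads in some libraries, and each library weighed the same. There, 5′ fragments made up 3.27% ± 4.35 of mt-Tl2 reads in WT and 10.02% ± 6.95 in AD (adjusted p = 0.168, exact permutation test, 6.25% of 16 tRNAs called). Their whole CCA tails at these lengths, 0.0231% ± 0.0255 and 0.0362% ± 0.0852 for mt-Tl1, were not called either (8.33% of 12 tRNAs called). The internal share of mt-Tl1 at 43 to 45 nt was 37.1% ± 16.1 and 53.4% ± 13.5 (adjusted p = 0.106, exact permutation test, 37.5% called), and its 3′ share 62.7% ± 16.1 and 46.4% ± 13.5 (adjusted p = 0.146, exact permutation test, 12.5% called). Of the 3′ fragments of mt-Tl1 at 43 to 45 nt, those that began in the anticodon loop were 51.4% ± 11.2 (37.9% to 71.4%) in WT and 80.2% ± 6.48 (68.9% to 88.2%) in AD, a share named after its values were seen and not tested. At these lengths a 3′ fragment that is shorter starts later, and the lengths themselves shifted in AD. The part of that shift in the share of starts in the loop was not tested. The ratio of mt-Tl1 to mt-Tl2 at 15 to 40 nt was 11.3 ± 4.31 in WT and 8.72 ± 6.03 in AD, a log2 difference of -0.52 (exact permutation test, adjusted p = 0.977 over 231 pairs, of which none was called). At 43 to 45 nt it was 38.3 ± 21.6 and 29.8 ± 14.4, a log2 difference of -0.47 (exact permutation test, adjusted p = 0.328, 47.2% of pairs called). This ratio was called with a pseudocount of 1 RPM (adjusted p = 0.0345, exact permutation test). At these lengths the 5′ share of mt-Tl2 was called without the 3 AD libraries of high muscle miRNA or without WT replicate 3 (adjusted p = 0.0280 and 0.0356, exact permutation test). The internal share of mt-Tl1 was called without WT replicate 1 (adjusted p = 0.0291, exact permutation test).

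With traditional-seq neither tRNA and none of the 8 mt-Tl1 and 31 mt-Tl2 fragments tested was called between genotypes. mt-Tl1 ranged from 26.3 RPM over 63.4 RPM to 112 RPM in WT and from 33.0 RPM over 60.5 RPM to 76.5 RPM in AD, with a log2 change of 0.09 (SE 0.28, adjusted p = 0.999991, edgeR). mt-Tl2 ranged from 104 RPM over 182 RPM to 290 RPM in WT and from 98.3 RPM over 171 RPM to 296 RPM in AD, with a log2 change near 0 (SE 0.28). edgeR called 0 of the 8 mt-Tl1 and 31 mt-Tl2 fragments tested, and 0 of them had an unadjusted p under 0.05. Of the 4777 sequences of all RNAs tested, 0 were called and 25 (0.523%) had an unadjusted p under 0.05. DESeq2 and the likelihood ratio test of edgeR also called 0 leucine fragments. With a loose filter, 144 and 106 were tested, of which 0 were called and 8 and 1 had an unadjusted p under 0.05, beside 4 called (0.0134%) and 1109 at an unadjusted p under 0.05 (3.70%) of all 29934 sequences. The 5′ share of mt-Tl1 was 38.8% ± 10.6 in WT and 45.7% ± 15.8 in AD (exact permutation test, adjusted p = 0.878). The genotype effect on the level did not differ between protocols for mt-Tl1 beyond the spread (difference of -0.59 on the log2 scale, permutation test, p = 0.125, adjusted p = 0.995) or for mt-Tl2 (0.07, adjusted p = 0.995 by the permutation test). This test again took the libraries as unrelated. With each shared file-name code taken as a pair, an alternative chosen after seeing the data, the differences were -0.59 (p = 0.139, adjusted p = 0.905, exact permutation test) and 0.26 (adjusted p = 0.905, exact permutation test).

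Reads that cross an end of a tRNA gene hold sequence of the long precursor. Reads holding at least 5 nt on either side of the border between mt-Rnr2 and mt-Tl1 were found in all 16 PANDORA-seq libraries (6607 reads, 4.93 RPM ± 3.67) and in all 14 traditional-seq libraries (63 reads, 0.366 RPM ± 0.179). In PANDORA-seq they were at 4.60 RPM ± 3.46 in WT and 5.27 RPM ± 4.08 in AD. At the other end of mt-Tl1, towards mt-Nd1, there were 61 and 6 reads. For mt-Tl2 there were 0 reads over either end in all 30 libraries. The count was not checked on simulated reads that cross an end, so a true absence was not shown.

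Likeness to other mitochondrial tRNAs was described by Spearman's rho of the level at 15 to 40 nt over the WT and AD libraries of a protocol together. These libraries differed in depth and read length, and the part of this and of genotype in rho was not tested. In PANDORA-seq (n = 16), mt-Tl1 was most like the cysteine tRNA mt-Tc (0.771), the glutamate tRNA mt-Te (0.744) and the histidine tRNA mt-Th (0.744). mt-Tl2 was most like the tyrosine tRNA mt-Ty (0.947), the tryptophan tRNA mt-Tw (0.941) and mt-Tc (0.915), and its rho with mt-Tl1 was 0.621. In traditional-seq (n = 14), mt-Tl1 was most like the glutamine tRNA mt-Tq (0.899), mt-Te (0.763) and mt-Tc (0.675), and mt-Tl2 most like the glycine tRNA mt-Tg (0.745), mt-Te (0.714) and the alanine tRNA mt-Ta (0.705). The rho between the 2 leucine tRNAs was 0.301 there. Among the 21 others, mt-Tl2 stood at rank 8 for mt-Tl1 in PANDORA-seq and 14 in traditional-seq, and mt-Tl1 at rank 16 and 11 for mt-Tl2.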

How the data were processed

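The authors deposited, for each of the 30 libraries, a table of distinct small RNA sequences with their read counts, unscaled, after adapter trimming and annotation with SPORTS1.1, which kept reads of 15 to 45 nt and allowed 1 mismatch. The submitters' processing notes name mm39. The deposited tables hold sequences and no coordinates, so reads were matched here, whole and sense, to 6125 mitochondrial and small non-coding RNAs of GENCODE vM21 (GRCm38), with CCA added to tRNAs. Copies of mitochondrial DNA in the nuclear genome were not checked, and the transgenes could not be checked in small RNA. Levels are reads per 1000000 reads of a library (RPM), from 54926347 to 105876141 reads with PANDORA-seq and 9370669 to 17053412 with traditional-seq, and no other column of samples was present.

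Distinct sequences, and RNAs summed at 15 to 40, 41 to 42 and 43 to 45 nt, were tested by edgeR's quasi-likelihood test (TMM, filterByExpr with a minimum count of 10 and total of 15) with Benjamini-Hochberg adjustment over everything tested in a protocol. A sequence counted as called when its adjusted p was below 0.05 and its fold change above 2. The study's likelihood ratio test was an alternative, as was DESeq2. Shares, ratios and log2(RPM + 0.1) levels were compared by two-sided permutation tests, exact within a protocol and with 100000 permutations between protocols (20000 when a library was left out), adjusted over the mitochondrial tRNAs or their pairs. Counting error is included in the spread between libraries. Named are, for each tRNA, the 3 most abundant fragments of each protocol at 15 to 40 nt and of PANDORA-seq at 43 to 45 nt, the called fragments, and the 3 most alike tRNAs. The members and lists were chosen with earlier results of these data known.

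Same-numbered WT and AD libraries correlated at -0.447 to 0.191 with PANDORA-seq and -0.436 to 0.507 with traditional-seq, so the numbers were not taken as pairs. On simulated counts for the PANDORA-seq comparison (24081 sequences), edgeR recovered 0% of 2-fold, 30% of 4-fold and 70% of 8-fold changes with 3 false calls. For traditional-seq (4777 sequences) it recovered 4%, 42% and 82%, with 5 false calls. A call needs a fold over 2, which by itself drops part of the 2-fold changes. The simulated sequences varied independently of each other, without a shift in read length between genotypes. The false calls thus do not cover calls that go with such a shift. R 4.3.3, edgeR 4.0.16, DESeq2 1.42.0, Python 3.11.15, numpy 2.4.6, pandas 2.3.3, scipy 1.17.1 and matplotlib 3.10.9 were used.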

Additional observations from a re-analysis of the deposited data

Results flagged for a closer look

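Of 57 groups of 7 or 8 libraries examined for a library far from the rest by Dixon's criterion, 7 held such a library. Chance gives about 1 in 20 for independent and normally spread values, which levels and linked shares of the same reads need not be. Whether 7 is more than chance gives was not tested. In AD PANDORA-seq, replicate 7 had the highest 5′ share of mt-Tl1 (22.45%, next 13.09%) and replicate 5 the lowest internal share of mt-Tl1 (24.72%, next 39.91%). The level of mt-Tl2 at 43 to 45 nt was highest in AD replicate 6 (1.882 RPM, next 0.9072 RPM). AD replicates 6 and 7 are also among the 3 of high muscle miRNA. In WT PANDORA-seq, replicate 3 had the highest 5′ share of mt-Tl2 at 43 to 45 nt (13.45%, next 4.247%). In traditional-seq, AD replicate 2 had the highest 3′ share of mt-Tl2 (31.96%, next 11.25%) and with it the lowest internal share (68.04%, next 88.65%), and WT replicate 3 had the lowest share of mt-Tl2 3′ fragments with the whole CCA (75%, next 93.88%).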

How the results depend on the processing

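Of 263 values of 52 results under alternatives other than leaving out a library, 231 kept their direction and side of the threshold. The protocol differences in level, ratio, 5′ and 3′ share and whole CCA did so under every alternative run. None of these moved the limit that defines 3′ fragments. Fragments that end just before it, such as 38 to 74 of mt-Tl1, thus always counted as internal. The cause of the following changes was not tested. The number of mt-Tl1 fragments called, 6 as reported, was 12 by the likelihood ratio test (11 lower, 1 higher), 14 by DESeq2 (13 lower, 1 higher), 16 with a loose filter, 0 in reads of 15 to 40 nt alone, 12 in reads of 43 to 45 nt alone (4 lower, 8 higher) and 19 without the AD libraries of high muscle miRNA. Of all sequences tested, 4.38% were called as reported and 6.36%, 7.42%, 3.19%, 0.0713%, 43.7% and 7.99% under these settings in turn. That of mt-Tl2, 1 as reported, was 2 by DESeq2, 5 with the loose filter, 0 at 15 to 40 nt alone, 1 (higher) at 43 to 45 nt alone and 2 without those AD libraries. With each length range fitted alone, which centres it on its own reads, the AD against WT log2 changes became -0.62 (mt-Tl1, 15 to 40 nt, -0.22 as reported, not called in either), 0.17 (mt-Tl1, 41 to 42 nt), 0.23 (mt-Tl1, 43 to 45 nt), -0.11 (mt-Tl2, 15 to 40 nt), 0.17 (mt-Tl2, 41 to 42 nt) and 0.43 (mt-Tl2, 43 to 45 nt).

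Without the AD libraries of high muscle miRNA, chosen after seeing the data, the 5′ share of mt-Tl1 differed by 3.74 points (adjusted p = 0.137, exact permutation test), the 5′ share of mt-Tl2 at 43 to 45 nt by 9.86 points (adjusted p = 0.0280, exact permutation test, not called as reported) and mt-Tl2 at 41 to 42 nt by a log2 change of 0.18. With libraries paired by file-name code, the internal share of mt-Tl2 differed by -10.8 points between protocols (adjusted p = 0.0534, exact permutation test), no longer called. A pseudocount of 1 RPM gave a log2 ratio difference of -1.11 at 43 to 45 nt (adjusted p = 0.0345, exact permutation test). With 5′ fragments defined by starts at 1 to 3, the internal share of mt-Tl1 differed by 5.49 points between protocols and the 5′ share of mt-Tl2 by -4.26 points between genotypes. Reads of 18 to 40 nt gave internal share differences of mt-Tl1 of 5.06 points between protocols and 0.596 points between genotypes in traditional-seq. Differences near 0 changed sign for mt-Tl2 at 15 to 40 nt in PANDORA-seq by exact permutation test (-0.0114), for its genotype effect between protocols per reads of 15 to 40 nt (-0.13), for mt-Tl1 in traditional-seq with library size scaling (-0.0414), and for mt-Tl2 in traditional-seq by DESeq2 (0.000570), without filter (0.0217), with DESeq2 size factors (0.000473) and without ambiguous sequences (0.0315).

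Leaving out single libraries gave 5 to 10 mt-Tl1 and 1 to 2 mt-Tl2 fragments called, beside 3.56% to 5.70% of all sequences called lower, 4.36 to 6.57 points for the 5′ share of mt-Tl1, and -11.8 to -7.67 points for the internal share of mt-Tl2 between protocols, whose call was lost without WT replicate 4 (-8.92), WT replicate 7 (-7.67) or AD replicate 5 (-8.79) of PANDORA-seq, or WT replicate 3 (-9.44), WT replicate 4 (-9.58) or AD replicate 3 (-9.48), 4 (-9.54) or 5 (-9.51) of traditional-seq. At 43 to 45 nt the internal share of mt-Tl1 differed by 12.8 to 20.01 points (called without WT replicate 1, adjusted p = 0.0291, exact permutation test) and the 5′ share of mt-Tl2 by 4.92 to 8.21 points (called without WT replicate 3, adjusted p = 0.0356, exact permutation test). Uncalled differences that changed sign ranged, between genotypes in traditional-seq, from -0.10 to 0.18 (mt-Tl1 level), -0.22 to 0.0809 (mt-Tl2 level), -0.0373 to 0.43 (log2 ratio), -1.78 to 4.73 points (mt-Tl1 whole CCA), -0.904 to 3.22 (mt-Tl2 whole CCA), -2.63 to 3.08 (mt-Tl1 internal), -4.53 to 2.40 (mt-Tl2 3′) and -2.42 to 4.505 (mt-Tl2 internal). In PANDORA-seq they ranged from -0.53 to 0.43 (mt-Tl2 level, 41 to 42 nt), -0.00939 to 0.0575 points (mt-Tl1 5′, 43 to 45 nt), -0.0164 to 0.0194 (mt-Tl1 whole CCA, 43 to 45 nt), -0.0335 to 0.0543 (mt-Tl2 whole CCA) and 0 to 0.476 (mt-Tl2 whole CCA, 43 to 45 nt).

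With the replicate number as a block, 7 mt-Tl1 and 1 mt-Tl2 fragments were called (4.76% of all sequences), and mt-Tl1 and mt-Tl2 changed by -1.79 and -1.63 at 43 to 45 nt (edgeR, adjusted p = 0.0123 and 0.0286). None of the 12 results fitted with the block changed side. No library of PANDORA-seq and 1 pair of traditional-seq correlated best with its own number.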

Other observations

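In mt-Tl2, 1 substitution was frequent in a single library of each protocol. A37G (positions from the first base of the tRNA, the reference base first) was carried by 35 of 86 reads over that position (40.7%) in AD replicate 3 of PANDORA-seq and by 12 of 34 (35.3%) in AD replicate 2 of traditional-seq, and these 2 libraries share a code in their file names. The next highest library was at 2.78% in each protocol. The other libraries with 20 or more such reads held 20 of 2617 and 10 of 1268. It was found after the values were seen, by asking for a share of 20% or more in 1 library at a median under 2%, and no test was made. The levels of mt-Tl2, which count exact matches, leave out the reads that carry A37G.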
